A study of Mus musculus with 6 samples.

Results

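Dnmt3a and Dnmt1, the DNA methyltransferase genes of the mouse, were described by the methylation of their own CpGs in neocortex. The members were CpGs in 2 intervals of the mouse build mm39, chr12:3850000-3970000 around Dnmt3a and chr9:20810000-20880000 around Dnmt1. A CpG entered when it had at least 10 reads, summed over its strands, in at least 2 samples of each genotype. By this rule 185 CpGs entered, 107 of them at Dnmt3a and 78 at Dnmt1, out of 864621 autosomal CpGs that met the same rule. The tables listed 302 CpGs in the Dnmt3a interval and 152 in the Dnmt1 interval in at least 1 library.

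The study compared the neocortex of mice at postnatal day 5 in 2 genotypes, 3 samples labelled Chd8+/-, with a single intact copy of the gene for the chromatin remodeller CHD8, and 3 labelled WT, wild type. The assay was RRBS, reduced representation bisulfite sequencing of genomic DNA cut at CCGG by MspI, which reads unmethylated cytosines as thymine. How the Chd8 allele was made, and whether samples stand for separate animals, are not given in the sources used here. The p-values therefore measure the spread between these samples, which may be technical.

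Dnmt3a is a de novo methyltransferase, which places methyl groups on unmethylated DNA, and it is prominent in the early postnatal brain, where it also methylates cytosines outside CpGs in neurons. The gene is transcribed from upstream promoters and from an internal promoter, which gives the shorter isoform Dnmt3a2. Dnmt1 is the maintenance methyltransferase, which copies methylation onto the new strand after replication and is expressed broadly in dividing cells and in neurons.

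CpG coverage summed to 39820333, 32285980 and 36887445 reads in the Chd8+/- libraries, against 49406794, 54818138 and 45498222 reads in the WT libraries, so each Chd8+/- library was shallower than each WT library. The share of cytosines left unconverted outside CpGs was 0.348%, 0.347% and 0.327% in Chd8+/- libraries and 0.321%, 0.316% and 0.321% in WT libraries. Chromosome X took 2.56% of the coverage in Chd8+/- replicate 3 and 2.58% in WT replicate 3, and 1.18% to 1.21% in the other libraries. CpG methylation does not read the Chd8 allele or cell type markers, so neither the genotype labels nor the tissue label was checked. In bulk tissue, a change in the mix of cells and a change within cells cannot be told apart.

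The promoters on which the account turns are shown here with the CpGs that entered in capitals. Their letters are those of the RefSeq promoter table of build GRCm38.p6, and run from 250 bases before to 50 bases after each annotated start. No mm39 genome was used, so each promoter was placed on mm39 by the spacing of its CpGs. A placement was taken when every CpG listed in the 300-base window fell on a CpG of the sequence. All 27 listed CpGs matched at the upstream Dnmt3a start, all 14 at the internal Dnmt3a start and all 23 at the Dnmt1 start, against at most 6 in the next best full match of each.
Dnmt3a upstream start (chr12:3856730-3857029, mm39, plus strand): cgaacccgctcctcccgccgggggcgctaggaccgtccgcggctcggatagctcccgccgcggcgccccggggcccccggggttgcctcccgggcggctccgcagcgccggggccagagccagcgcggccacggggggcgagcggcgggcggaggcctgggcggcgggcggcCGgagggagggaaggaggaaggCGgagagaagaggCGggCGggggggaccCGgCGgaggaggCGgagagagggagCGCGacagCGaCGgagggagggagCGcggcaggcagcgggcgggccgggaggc
Dnmt3a internal start (chr12:3941494-3941793, mm39, plus strand): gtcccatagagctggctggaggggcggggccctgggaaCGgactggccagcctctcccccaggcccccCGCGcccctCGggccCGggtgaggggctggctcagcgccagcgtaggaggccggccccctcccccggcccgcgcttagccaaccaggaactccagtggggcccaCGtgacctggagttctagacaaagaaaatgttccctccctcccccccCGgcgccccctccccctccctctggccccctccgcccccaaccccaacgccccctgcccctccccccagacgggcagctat
Dnmt1 start (chr9:20863870-20864169, mm39, minus strand): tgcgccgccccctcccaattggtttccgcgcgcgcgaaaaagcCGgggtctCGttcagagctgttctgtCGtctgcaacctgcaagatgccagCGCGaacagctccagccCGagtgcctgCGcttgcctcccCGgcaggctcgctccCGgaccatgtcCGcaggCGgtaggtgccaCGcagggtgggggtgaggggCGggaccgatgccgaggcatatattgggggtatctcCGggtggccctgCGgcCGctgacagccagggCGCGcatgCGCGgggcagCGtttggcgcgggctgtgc
The start sites lay at position 3856980 for the upstream Dnmt3a start and, 84764 bp further along the gene, at 3941744 for the internal start. A further upstream start, 180 bp past the first, was placed with 37 of 37 listed CpGs, and its window overlaps that of the upstream start shown. The placed Dnmt1 start site was at 20863919, and the other 2 Dnmt1 starts in the RefSeq table could not be placed. The upstream Dnmt3a window held 82.3% G and C, 46 CpGs and 8 CCGG sites, and the internal Dnmt3a window 74.0% G and C, 18 CpGs and 4 CCGG sites. The Dnmt1 window held 69.7% G and C, 33 CpGs and 4 CCGG sites. For comparison, CCGG, which reads the same on both strands, occurred in 52.8% of all 32851 mouse promoter windows of 300 bases in the table.

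The upstream promoter cluster of Dnmt3a was nearly free of methylation in both genotypes. It is the longest dense run in the interval, with 31 member CpGs from position 3856533 to 3857921 of chromosome 12. A dense run was a series of CpGs with at least 11 listed CpGs within 250 bp on either side and gaps of at most 500 bp. At 28 of the 31 CpGs no methylated read was seen in any sample that read them. The Chd8+/- samples had 2 methylated reads of 452, 3 of 243 and 3 of 470. The WT samples had 0 methylated reads of 491, 2 of 717 and 0 of 494. The highest share, 1.23% in Chd8+/- replicate 2, had an exact Clopper-Pearson 95% interval of 0.255% to 3.57%. A count of 0 in the 491 reads of WT replicate 1 allows a share of up to 0.611%, and in the 494 reads of WT replicate 3 up to 0.607%. Such intervals and limits cover counting error only, since the labels mention no molecular identifiers. Reads were summed over CpGs, so a read that covers several CpGs was counted at each of them. In WT replicate 1, for example, the CpGs at 3856937 and 3856941 had 34 reads each. Intervals and limits over several CpGs of a cluster take these counts as independent and are thus too narrow, by an amount not worked out here.

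The few methylated reads at the upstream cluster sat on 3 CpGs. The CpG at 3856902, which lies 78 bp before the start site, was methylated at 0%, 20% and 6.25% in Chd8+/- samples and at 0%, 1.92% and 0% in WT samples, with 15 to 52 reads per sample. The CpG at 3857001 was at 20% in Chd8+/- replicate 3, on 10 reads, and at 0% in the other 5 samples. The CpG at 3857872, near the far edge of the cluster, was at 18.2% in Chd8+/- replicate 1 on 11 reads and at 5% in WT replicate 2 on 20 reads. These values rest on few reads, and at each of the 3 CpGs the genotypes overlapped.

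The internal promoter cluster of Dnmt3a was likewise nearly unmethylated, over a much shorter run of 8 member CpGs from 3941532 to 3941810. The Chd8+/- samples had 1 methylated read of 177, 0 of 25 and 0 of 200. The WT samples had 1 methylated read of 106, 0 of 274 and 4 of 258. Chd8+/- replicate 2 read only 1 of the 8 CpGs, so its count of 0 allows a share of up to 12.0%. In Chd8+/- replicate 3 a count of 0 allows up to 1.5%, and in WT replicate 2 up to 1.09%. No CpG of this cluster exceeded 9.09% in a sample, the value of position 3941577 in WT replicate 3.

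The Dnmt1 promoter cluster, 24 member CpGs from 20863629 to 20864125 of chromosome 9, was also nearly unmethylated. At 17 of the 24 CpGs no methylated read was seen in any sample that read them. The Chd8+/- samples had 10 methylated reads of 806, 7 of 387 and 0 of 484. The WT samples had 4 methylated reads of 733, 1 of 852 and 6 of 440. The highest value of any CpG here was at position 20864036, 117 bp before the start site. It was methylated at 0%, 16.2% and 0% in Chd8+/- samples and at 0%, 0% and 42.9% in WT samples, where WT replicate 3 had 14 reads. Each genotype thus had 1 sample with methylated reads at this CpG and 2 samples without.

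**Figure D1:**
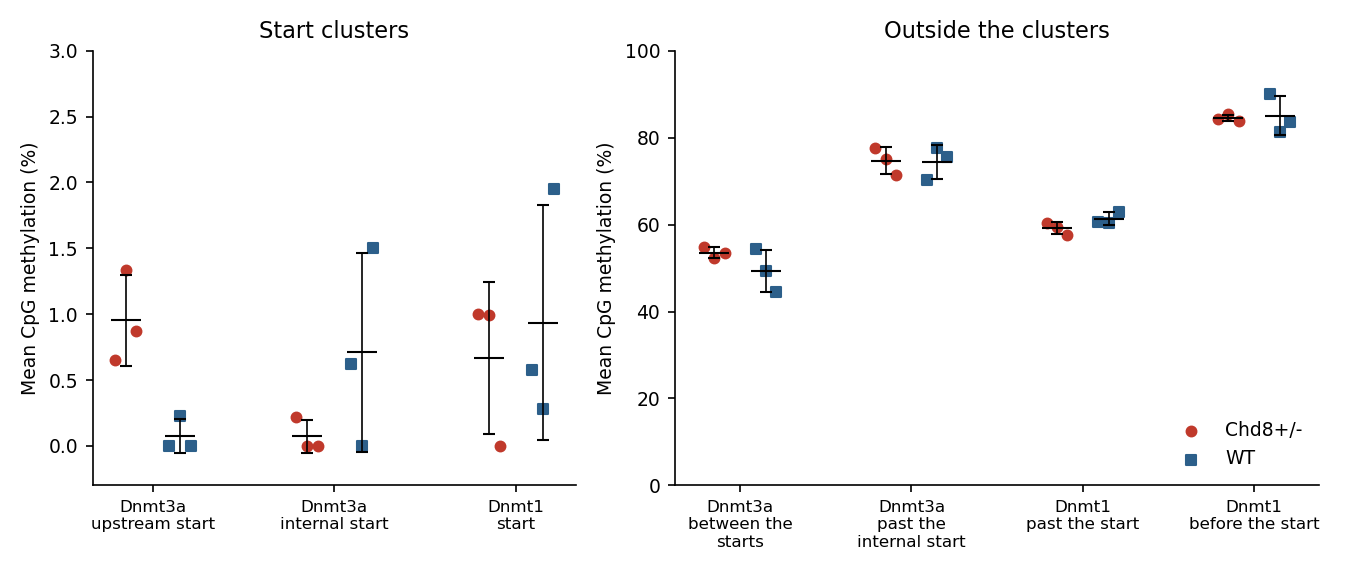
Mean CpG methylation in percent at promoter clusters (left axis, all member CpGs) and in the segments outside them (right axis, CpGs read in all 6 samples). Points are samples, with Chd8+/- left of WT, long bars are means and error bars are SDs. The clusters lie below 2% in every sample, and the segments lie between 44.6% in WT replicate 3, between the Dnmt3a starts, and 90.0% in WT replicate 1, before the Dnmt1 start.

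Over the CpGs of the clusters that were read in all 6 samples, the genotypes did not differ beyond the spread between samples. Of the 12 such Dnmt3a CpGs, 11 lay in the upstream cluster and only 1 in the internal cluster, which this test therefore hardly covers. The 12 CpGs averaged 0%, 1.67% and 2.19% in Chd8+/- samples and 0.208%, 0.160% and 0% in WT samples. Their group means were 1.28% ± 1.14 in Chd8+/- and 0.123% ± 0.109 in WT (SD, n = 3 each), and Chd8+/- replicate 1 was as low as the lowest WT sample. The difference, Chd8+/- minus WT, was 1.16 percentage points with a standard error of 0.663 and an exact two-sided permutation p of 0.4. With 3 samples against 3 this test cannot give a p below 0.1. The difference was 1.80 points without Chd8+/- replicate 1 and 0.710 points without Chd8+/- replicate 3. The 12 such Dnmt1 CpGs averaged 0.911%, 1.66% and 0% in Chd8+/- samples and 0.379%, 0.397% and 3.57% in WT samples. The group means were 0.857% ± 0.831 in Chd8+/- and 1.45% ± 1.84 in WT (SD, n = 3 each). The difference was −0.592 points with a standard error of 1.16 and an exact permutation p of 0.8. Its sign rests on WT replicate 3: without that library the difference was 0.469 points, without any other library −1.13 to −0.163 points, and with weights by reads 0.389 points.

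With all 39 Dnmt3a cluster CpGs, each sample taken as the unweighted mean over those it read, the genotypes no longer overlapped. The 2 promoters went opposite ways. The 31 upstream CpGs differed by 0.878 points, Chd8+/- minus WT, without overlap, and the 8 internal CpGs by −0.637 points, with overlap. Neither was tested alone. Over all 39, the Chd8+/- samples stood at 0.554%, 1.25% and 0.691%, against 0.0758%, 0.178% and 0.354% in the WT samples. The difference over all 39 was 0.629 points (standard error 0.228), with the smallest exact permutation p that 3 against 3 samples allow, 0.1, and a Benjamini-Hochberg value of 0.4 over the 4 levels compared. The 160196 autosomal cluster CpGs read in all 6 samples did not overlap between the genotypes either, with 7.74%, 7.81% and 7.86% in Chd8+/- samples and 7.63%, 7.67% and 7.67% in WT samples, a difference of 0.150 points (standard error 0.0358). A separation in this direction was thus also seen beyond Dnmt3a, although on an unlike set. The autosomal CpGs were read in all 6 samples, and on such CpGs the Dnmt3a clusters overlapped, as given above. The samples do not average the same CpGs over the 39: Chd8+/- replicate 2 read 16 of the 39. In unweighted means thinly read CpGs weigh much, such as 20% on 15 reads in Chd8+/- replicate 2 at 3856902. With the read counts given above pooled over both clusters, WT replicate 3 lay above Chd8+/- replicates 1 and 3, so the genotypes overlapped. The upstream cluster alone stayed apart by pooled reads. The unconverted share outside CpGs was also higher in each Chd8+/- library than in each WT library, as given above, and its part in the difference was not tested.

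Outside the promoter clusters, the Dnmt3a interval was methylated at intermediate to high levels, with low stretches in between. Of 107 member CpGs, 59 had a mean level below 20%, 21 lay between 20% and 80%, and 27 lay above 80%, where the mean of the 2 genotype means sets the class. Over all 864621 autosomal CpGs these shares were 43.4%, 21.6% and 35.0%. All 39 cluster CpGs were in the lowest class. Of the 30 CpGs between the start clusters, 13 were below 20%, 12 between and 5 above 80%, and of the 38 past the internal start, 7 were below 20%, 9 between and 22 above 80%.

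**Figure D2:**
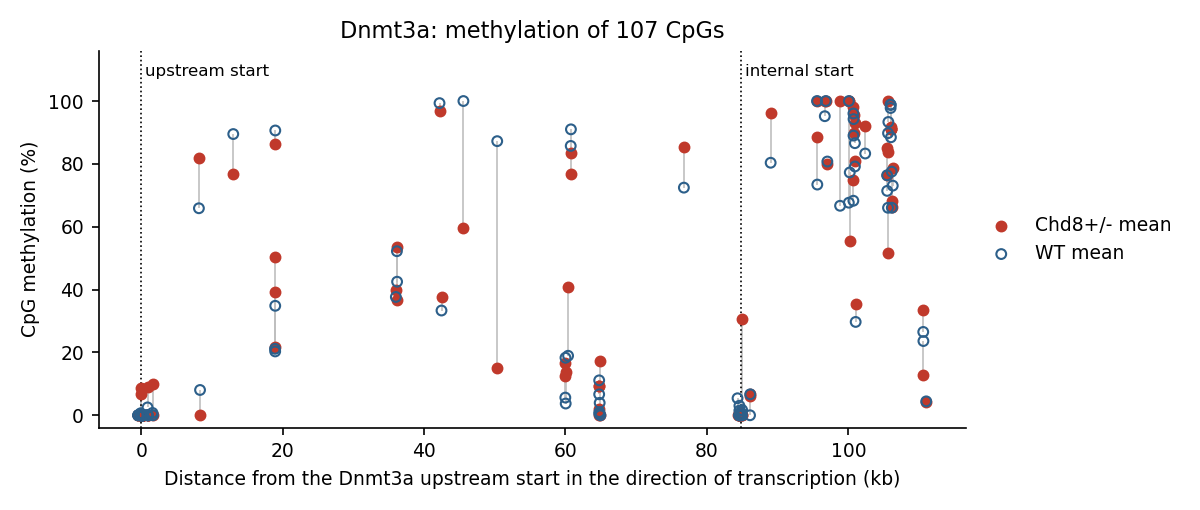
Methylation in percent of the 107 member CpGs at Dnmt3a against the distance in kb from the upstream start, in the direction of transcription. Filled points are Chd8+/- means and open points WT means over the samples that read the CpG, joined by a grey line, and dotted lines mark the upstream and internal starts. Points lie near 0 at both starts and mostly above 60% past the internal cluster.

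The low state at the upstream promoter ran on past the dense cluster. The CpG at 3858574, 1594 bp into the gene, was at 0% in all 3 Chd8+/- samples and at 1.33%, 0.901% and 0% in WT samples, with 41 to 111 reads per sample. The next deeply read CpG, at 3865137 and 8157 bp into the gene, stood at 96.6%, 85.2% and 63.6% in Chd8+/- samples and 79.6%, 68.0% and 50% in WT samples. The CpG at 3865297, 8317 bp into the gene, was low again on 10 to 29 reads. It was at 0% in the 2 Chd8+/- samples that read it and at 0%, 24.1% and 0% in WT samples. The genotypes overlapped at each of these CpGs. Methylation was also low in 2 stretches far from either start. At 3917010, 60030 bp into the gene, it was 9.85%, 20% and 11.1% in Chd8+/- samples and 4.81%, 4.03% and 2.35% in WT samples, with 60 to 132 reads. The genotypes did not overlap at this CpG, but edgeR's quasi-likelihood test gave an unadjusted p of 0.14 and an adjusted p of 1. This CpG was singled out after its values were seen. Its neighbour at 3916978 did not separate the genotypes, with 16.9%, 32.7% and 0% in Chd8+/- samples and 15.6%, 15.1% and 24.2% in WT samples. Further in, the CpG at 3921756 was at 0% and 3.85% in the 2 Chd8+/- samples that read it and at 0%, 1.49% and 0% in WT samples.

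Between these low stretches single CpGs were close to fully methylated. The CpG at 3899165, 42185 bp into the gene, stood at 94.9%, 96.0% and 100% in Chd8+/- samples and 98.0%, 100% and 100% in WT samples. Past the internal start the low state ended between 3943104 and 3945996. At 3943104 the 2 Chd8+/- samples that read it stood at 12.5% and 0%, and the 2 WT samples at 0% and 13.3%. At 3945996 the 2 Chd8+/- samples that read it stood at 100% and 92.1%, and the WT samples at 62.5%, 78.6% and 100%. The 3 CpGs farthest along the interval, at 3967577, 3967599 and 3967997, were lower again, with group means of 33.5%, 12.8% and 4.35% in Chd8+/- and 26.5%, 23.6% and 4.42% in WT. The end of the gene was not placed on mm39, so whether these 3 CpGs lie inside it is not stated here. In RefSeq order, Pomc is the next protein-coding gene after Dnmt3a.

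The Dnmt3a segment past the internal start was more methylated than the segment between the starts in each of the 6 samples. Between the starts, 10 CpGs read in all samples averaged 54.8%, 52.2% and 53.5% in Chd8+/- samples and 54.3%, 49.3% and 44.6% in WT samples. Past the internal start, 24 such CpGs averaged 77.6%, 75.1% and 71.4% in Chd8+/- samples and 70.2%, 77.6% and 75.5% in WT samples. The lowest sample past the internal start, 70.2% in WT replicate 1, was above the highest between the starts, 54.8% in Chd8+/- replicate 1. With all member CpGs the 6 samples ranged from 65.4% to 76.5% past the internal start and from 32.8% to 42.6% between the starts. These segments were set after the levels were seen, so the contrast is a description and was not tested.

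A pair of CpGs at 3963113 and 3963132 was at the lower limit of density for a cluster, with 11 listed CpGs each within 250 bp, and was methylated. The member CpGs of the upstream and internal promoter clusters had 29 to 59 and 14 to 18 listed CpGs in the same distance. The CpG at 3963113 stood at 74.8%, 64.9% and 64.9% in Chd8+/- samples and 77.5%, 66.7% and 88.5% in WT samples, with 71 to 174 reads. The CpG at 3963132 stood at 75.0%, 52.3% and 71.3% in Chd8+/- samples and 64.3%, 71.1% and 62.7% in WT samples, with 70 to 195 reads. They were too few for a cluster, which needed 5 member CpGs, and were counted with the CpGs outside clusters.

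The Dnmt1 interval was low at the promoter and mostly highly methylated on either side of it, with further low CpGs within the gene and at the far end of the interval. Of 78 member CpGs, 32 had a mean level below 20%, 9 lay between 20% and 80% and 37 lay above 80%. Before the placed start, 15 CpGs from 20869847 to 20878960 held 0 of the low class, 4 of the middle class and 11 of the high class. Since the other Dnmt1 starts were not placed, whether these 15 lie outside the transcribed gene was not resolved. Past the start, 39 CpGs held 8, 5 and 26. At 20841713 and 20841722, for example, each of the 6 samples stood at 100% on 13 to 45 reads.

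**Figure D3:**
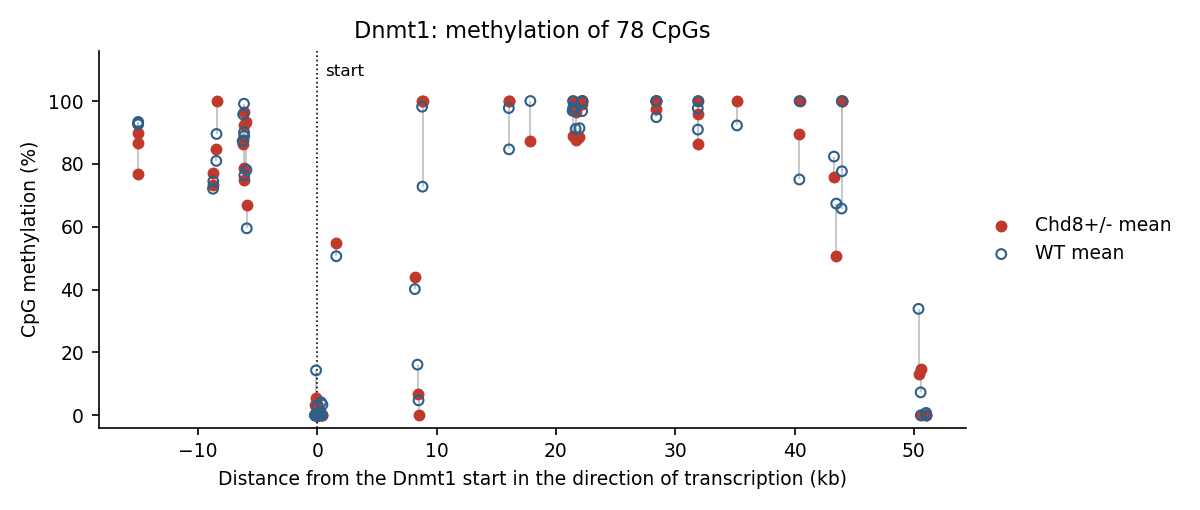
Methylation in percent of the 78 member CpGs at Dnmt1 against the distance in kb from the placed start, in the direction of transcription. Filled points are Chd8+/- means and open points WT means over the samples that read the CpG, joined by a grey line, and the dotted line marks the start. Points lie near 0 at the start, mostly above 60% on either side, and near 0 again at the far end of the interval.

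Levels along Dnmt1 changed over short distances. The CpG at 20862339, 1580 bp into the gene, was at 19.4%, 89.5% and 55.6% in Chd8+/- samples and at 54.5% and 46.7% in the 2 WT samples that read it. The 5 CpGs from 20855753 to 20855110 lay 8166 to 8809 bp into the gene and spanned nearly the whole range of levels. At 20855531 the Chd8+/- samples stood at 20.3%, 0% and 0%, against 17.9%, 18.2% and 12.2% in WT samples. At 20855147, further along, the 2 Chd8+/- samples that read it stood at 100% and 100%, and the WT samples at 100%, 100% and 94.6%. The far end of the interval was low again: the 5 CpGs from 20812877 to 20813522 had group means of 0% to 14.9% in Chd8+/- and 0% to 33.9% in WT. These 5 CpGs lay 2991 to 3636 bp from the start site placed for Eif3g, a translation initiation factor subunit gene that neighbours Dnmt1 in RefSeq order. Their part in a promoter or gene body was not resolved here.

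The segments of Dnmt1, as set here, kept their order in each of the 6 samples. The 13 CpGs before the start read in all samples averaged 84.2%, 85.3% and 83.9% in Chd8+/- samples and 90.0%, 81.4% and 83.7% in WT samples. The 23 such CpGs past the start averaged 60.4%, 59.4% and 57.6% in Chd8+/- samples and 60.6%, 60.4% and 63.0% in WT samples. This contrast, too, is a description of segments set after the levels were seen. The 23 CpGs include the low ones from 20812877 to 20813522, near Eif3g, which were not resolved as promoter or gene body. They also include 20863502 and 20863540 at the promoter edge, with group means of 0% in Chd8+/- and 3.38% and 0% in WT. These low CpGs pull down the level past the start, and the order in all 6 samples depends on counting them there.

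Outside the clusters, the mean level of neither gene differed between the genotypes beyond the spread between samples. The 34 Dnmt3a CpGs read in all samples averaged 70.9%, 68.4% and 66.1% in Chd8+/- samples and 65.5%, 69.3% and 66.4% in WT samples. The group means were 68.5% ± 2.36 in Chd8+/- and 67.1% ± 1.98 in WT (SD, n = 3 each). The difference was 1.41 points with a standard error of 1.78 and an exact permutation p of 0.6. It was 0.210 points without Chd8+/- replicate 1, 2.57 points without Chd8+/- replicate 3, 0.621 points without WT replicate 1 and 2.52 points without WT replicate 2. The 36 Dnmt1 CpGs averaged 69.0%, 68.8% and 67.1% in Chd8+/- samples and 71.2%, 68.0% and 70.5% in WT samples. The group means were 68.3% ± 1.03 in Chd8+/- and 69.9% ± 1.70 in WT (SD, n = 3 each). The difference was −1.58 points with a standard error of 1.15 and an exact permutation p of 0.3. It turned to 3.86 points with weights by reads (exact permutation p of 0.4) and was −5.10 points at a minimum of 20 reads (exact permutation p of 0.1). It was −0.989 points without Chd8+/- replicate 3, −0.917 points without WT replicate 1 and −2.54 points without WT replicate 2. All 4 comparisons of levels between the genotypes had a Benjamini-Hochberg value of 0.8. As background, the 374631 autosomal CpGs outside clusters averaged 65.0%, 65.3% and 66.6% in Chd8+/- samples and 64.9%, 64.8% and 64.8% in WT samples. Their difference was 0.791 points with a standard error of 0.494, without overlap, and was not tested.

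Within samples, CpGs of both genes outside clusters lay slightly above the 374631 autosomal CpGs outside clusters. The Dnmt1 level was higher than the autosomal level in 6 of 6 samples, by 4.04, 3.47 and 0.521 points in Chd8+/- samples and 6.33, 3.15 and 5.66 points in WT samples. The mean difference was 3.86 ± 2.06 points (SD, n = 6), with an exact two-sided sign-flip permutation p of 0.03125, the smallest that 6 samples allow, and a Benjamini-Hochberg value of 0.0938 over 3 such comparisons. With a minimum of 20 reads it turned to −3.54 points. The Dnmt3a level was higher in 5 of 6 samples, with differences of 5.90, 3.09 and −0.447 points in Chd8+/- samples and 0.603, 4.47 and 1.62 points in WT samples. The mean difference was 2.54 ± 2.40 points (SD, n = 6), with an exact sign-flip p of 0.0625 and a Benjamini-Hochberg value of 0.0938. With all 68 member CpGs outside clusters it turned to −9.25 points. The Dnmt3a level minus the Dnmt1 level was −1.32 ± 3.00 points (SD, n = 6), with an exact sign-flip p of 0.375, and with a minimum of 20 reads it turned to 4.48 points. The sign of each of the 3 differences changed with the choice of CpGs.

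No member CpG passed a test of genotype. In edgeR, a quasi-likelihood test on methylated and unmethylated reads with Benjamini-Hochberg adjustment over 609673 autosomal CpGs, 0 of 71 tested Dnmt3a CpGs and 0 of 52 tested Dnmt1 CpGs passed an adjusted p of 0.05. The autosomal background was 0%. Member CpGs with the same extreme level in every sample that read them were left out of the test: at Dnmt3a 33 at 0% and 3 at 100%, and at Dnmt1 20 at 0% and 6 at 100%. At an unadjusted p under 0.05 edgeR gave 1 Dnmt3a CpG and 2 Dnmt1 CpGs, with 3.04% of all autosomal CpGs tested. By limma the counts were 0 at the adjusted threshold, and 2 and 3 at the unadjusted one, with 5.11% of all CpGs. Over all members of each gene, as over all autosomal CpGs, the median difference was 0 points. This median says little, since 36 Dnmt3a and 26 Dnmt1 members had a difference of exactly 0. The other members were higher in Chd8+/- at 39 and lower at 32 CpGs of Dnmt3a, and at 27 and 25 CpGs of Dnmt1.

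Groups that did not overlap were few. At Dnmt3a, 1 CpG was higher and 4 were lower in every Chd8+/- sample than in every WT sample, and at Dnmt1, 2 were higher and 3 lower. These were 0.935% and 3.74% of the Dnmt3a members and 2.56% and 3.85% of the Dnmt1 members, against 4.07% higher and 2.97% lower over all autosomal CpGs, so the counts were near the background. Of these 10 CpGs, 8 were read in fewer than 6 samples. The other 2 were position 3917010 at Dnmt3a, given above, and position 20878960 before the Dnmt1 start, with 72.0%, 82.7% and 75.9% in Chd8+/- samples and 100%, 88.5% and 89.3% in WT samples.

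The 3 CpGs of each gene with the smallest p are given as values, since none passed. At Dnmt3a, the CpG at 3902545, 45565 bp into the gene, stood at 55.0% and 64.3% in the 2 Chd8+/- samples that read it, against 100% in all 3 WT samples, with 12 to 30 reads. Its unadjusted edgeR p was 0.0304. The CpG at 3907326, 50346 bp into the gene, stood at 0% and 30.0% in the 2 Chd8+/- samples that read it, on 13 and 10 reads, against 100%, 67.6% and 94.1% in WT samples on 13, 37 and 17 reads. This difference of −72.2 points was the widest of any member, and its unadjusted edgeR p was 0.0572. The CpG at 3953653 stood at 100% in all 3 Chd8+/- samples and at 91.1%, 100% and 94.4% in WT samples, with an unadjusted edgeR p of 0.0801.

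At Dnmt1, the CpG at 20855110, 8809 bp into the gene, stood at 100% in the 2 Chd8+/- samples that read it and at 80%, 78.8% and 59.5% in WT samples, with 33 to 37 reads. Its unadjusted edgeR p was 0.0222. The CpG at 20842483 stood at 96.2%, 100% and 95.8% in Chd8+/- samples, against 100% in all 3 WT samples, with an unadjusted edgeR p of 0.0433. The CpG at 20842275 stood at 95.2%, 88.1% and 79.3% in Chd8+/- samples and 100%, 100% and 93.6% in WT samples, with an unadjusted edgeR p of 0.0764. The adjusted edgeR p was 1 for all 6 CpGs.

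**Figure D4:**
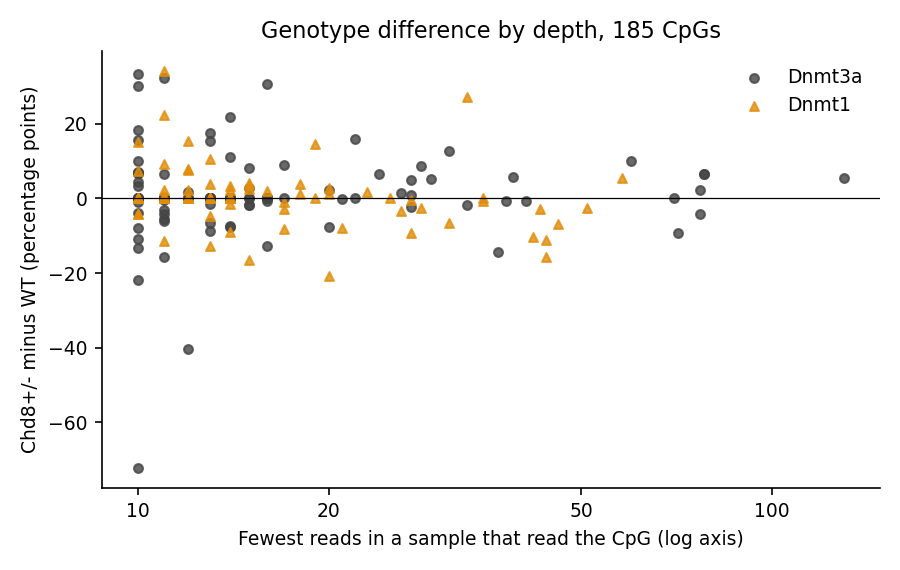
Difference in methylation, Chd8+/- minus WT in percentage points, of each of the 185 member CpGs against the fewest reads in any sample that read the CpG (log axis). Circles are Dnmt3a and triangles Dnmt1. The widest differences, −72.2 and −40.4 points, lie at CpGs with 10 and 12 reads in their shallowest sample.

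Windows of 1000 bp gave the same picture. Of the 68160 autosomal windows with at least 3 CpGs read in all samples, edgeR called 0, a background of 0%, and 3.77% had an unadjusted p under 0.05. Among the 6 Dnmt3a windows and the 8 Dnmt1 windows, 0 had an unadjusted edgeR p under 0.05, and by limma also 0, with 5.2% of all windows. The window at the upstream Dnmt3a start, chr12:3856001-3857000, held 10 CpGs and stood at 0%, 1.86% and 0.709% in Chd8+/- samples and 0%, 0.262% and 0% in WT samples. Its unadjusted edgeR p was 0.130, and its unadjusted limma p was 0.0821, the smallest by limma among the windows of both genes. The window from 3917001 to 3918000 stood at 34.8% ± 4.61 in Chd8+/- and 27.5% ± 7.03 in WT (SD, n = 3 each). The most deeply read body windows of Dnmt3a, from 3957001 to 3958000, stood at 89.9% ± 1.89 in Chd8+/- and 86.9% ± 6.52 in WT, and from 3963001 to 3964000 at 71.1% ± 4.62 in Chd8+/- and 72.1% ± 5.84 in WT (SD, n = 3 each). By edgeR, the smallest window p at either gene belonged to chr9:20878001-20879000, before the Dnmt1 start. It stood at 76.5%, 92.5% and 84.5% in Chd8+/- samples and 97.0%, 85.5% and 96.5% in WT samples, with an unadjusted edgeR p of 0.128.

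The other windows placed each gene's methylated and unmethylated stretches side by side. At Dnmt3a, the window from 3962001 to 3963000 stood at 80.3% ± 5.04 in Chd8+/- and 86.1% ± 5.84 in WT, and that from 3967001 to 3968000 at 14.1% ± 12.2 in Chd8+/- and 15.3% ± 7.65 in WT (SD, n = 3 each). At Dnmt1, the windows on either side of position 20864000, which hold the promoter, stood at 1.15% ± 1.32 and 0.905% ± 1.57 in Chd8+/- and at 1.03% ± 1.56 and 1.61% ± 2.79 in WT. Within the gene, the window from 20841001 to 20842000 stood at 97.7% ± 2.22 in Chd8+/- and 97.7% ± 2.20 in WT, and the next one at 93.9% ± 2.22 in Chd8+/- and 96.3% ± 0.455 in WT. The window from 20813001 to 20814000, at the far end, stood at 10.5% ± 7.36 in Chd8+/- and 15.4% ± 6.93 in WT. Before the start, the window from 20870001 to 20871000 stood at 86.5% ± 10.9 in Chd8+/- and 91.5% ± 1.44 in WT, and that from 20872001 to 20873000 at 83.2% ± 7.46 in Chd8+/- and 77.3% ± 8.11 in WT (SD, n = 3 each throughout). The smallest unadjusted edgeR p among these 9 windows was 0.255, at the window from 20842001 to 20843000.

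Levels of single CpGs ranged widely over the samples of both genotypes. From the lowest to the highest of the samples that read a CpG, the median range was 16.7 points at Dnmt3a and 9.91 points at Dnmt1, against 15.5 points over all autosomal CpGs. A range above 50 points was found at 14 of 107 Dnmt3a CpGs (13.1%) and 6 of 78 Dnmt1 CpGs (7.69%), with 10.97% of all autosomal CpGs. At Dnmt1, the CpG at 20820419 ran from 0% to 100%, with 62.5%, 89.7% and 0% in Chd8+/- samples and 56.2%, 45.8% and 100% in WT samples. At Dnmt3a, the CpG at 3962593 stood at 58.7%, 56.1% and 40.5% in Chd8+/- samples and 31.0%, 95.9% and 71.2% in WT samples, on 37 to 58 reads.

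Within genotypes, the scatter was set beside that of binomial counting, which takes reads as independent molecules and samples as identical, so that a wider scatter is no finding about these genes. At the 12 Dnmt3a CpGs between 20% and 80% that were read in all samples, the root mean square SD between samples was 15.5 points in Chd8+/- and 18.6 points in WT, while binomial counting would give 6.76 and 6.68 points. At the 7 such Dnmt1 CpGs it was 22.8 points in Chd8+/- and 16.1 points in WT, against 9.20 and 7.63 points from counting. Over 121513 other autosomal CpGs it was 19.6 points in Chd8+/- and 17.4 points in WT, against 8.23 and 7.42 points. The members thus scattered about as widely as other autosomal CpGs of that class, a comparison that was not tested.

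Other genes of the DNA methylation machinery had promoters of low methylation as far as they were read, as most promoters did. A list of 19 genes held the partner methyltransferases Dnmt3b and Dnmt3l, the hemimethylation readers Uhrf1 and Uhrf2, the remodeller Hells, the Tet oxidases, the base excision enzymes Tdg and Mbd4, other readers and partners, and enzymes of cofactor supply. Of their 25 starts, 16 starts of 14 genes were placed on mm39, and 11 genes had CpGs that met the rule there. In all 11 genes every sample was below 5% methylated reads. Of all 6638 autosomal genes with promoters placed and read in the same way, 5879 (88.6%) were below 5% in every sample, so the list is close to that background. The highest value was 4.41% in WT replicate 3 at Gadd45a, a stress-induced gene linked to demethylation, where 2 CpGs had 68 reads.

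Among oxidases that convert 5-methylcytosine, the promoter windows of Tet2 and Tet3 held 0 methylated reads in each sample, of 197 to 458 and 70 to 182 reads. The Uhrf1 window, whose gene product brings Dnmt1 to replicating DNA, held 0 methylated reads in the 5 samples that read it. Uhrf2, its paralogue, stood at 0%, 0% and 1.67% in Chd8+/- samples and at 0% in all 3 WT samples. The Hells window, of a remodeller needed for normal DNA methylation, stood at 0.563%, 0% and 0.680% in Chd8+/- samples and at 0% in all 3 WT samples. At Mbd4, a thymine glycosylase, the Chd8+/- samples stood at 0%, 0% and 1.73% and the WT samples at 1.08%, 0.197% and 0.577%. Differences at these promoters were not tested, and Dnmt3b, Tet1 and Tdg had no CpG there that met the rule.

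**Figure D5:**
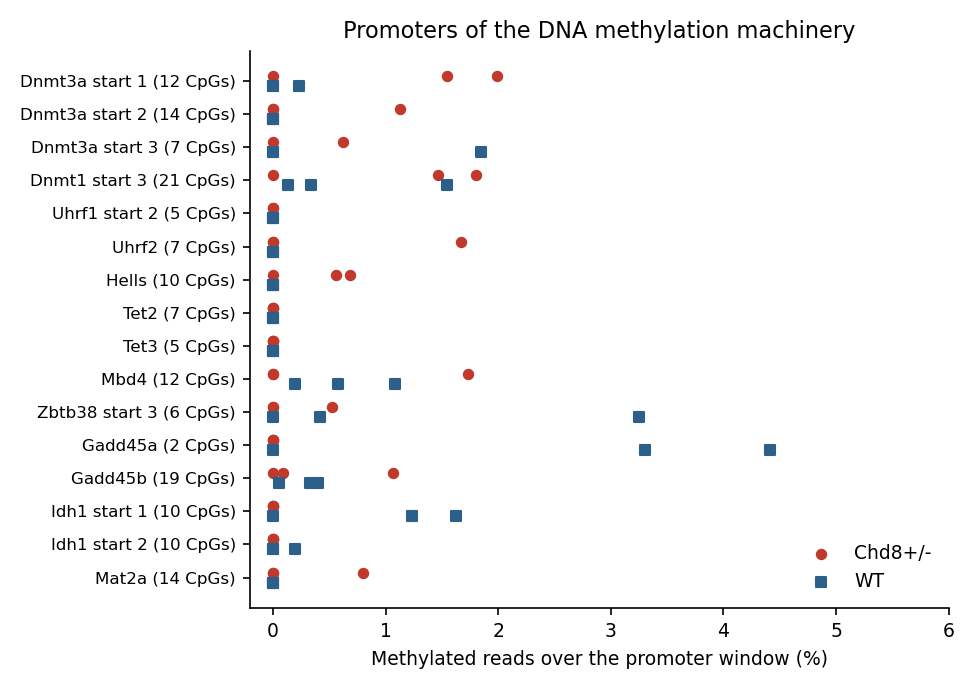
Share of methylated reads in percent over the 300-base promoter windows of Dnmt3a, Dnmt1 and the other genes of the DNA methylation machinery that were placed on mm39 and read. Each point is a sample, with Chd8+/- drawn above WT in each line, and the number of CpGs is given beside the gene. All samples lie below 5%.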

How the data were processed

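CpG methylation was measured by RRBS in 3 Chd8+/- and 3 WT neocortex samples. The build mm39 and the tools SAMtools 1.9, Bismark 0.20.0 and Trim Galore 0.4.4 are named in the submitters' processing notes; settings and deduplication are not given in the sources used here. The authors deposited 1 table per library with coverage, a count of reads per CpG cytosine, and percent read as cytosine and as thymine, per the file headers. Conversion outside CpGs came from the authors' deposited conversion statistics, in percent. The tables listed 953724 to 1400708 cytosines per library, and the lowest coverage listed was 10 reads. Coverage multiplied by percent gave whole reads within 0.02 for 99.96% to 99.97% of cytosines and was rounded. Depths are given above with the exact Clopper-Pearson intervals and the limit of 3 reads for a count of 0.

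Strands were merged by adding reads. Genotypes were compared at single CpGs and 1000 bp windows by edgeR 4.0.16 (quasi-likelihood, R 4.3.3) with a coverage term per sample and no replicate block, fitted over all autosomal features. Levels, unweighted means over CpGs read in all 6 samples, were compared by exact permutation tests, and within samples by exact sign-flip permutations. The alternatives were limma 3.58.1 on log2 of methylated plus 1 over unmethylated plus 1 reads, Fisher's exact test on pooled reads, a minimum of 20 reads, all members, weighting by reads, density 21, the replicate block and leaving out samples. The count tests were tested on simulated counts. The rest was done in Python 3.11.15 with scipy 1.17.1, pandas 2.3.3 and matplotlib 3.10.9 on numpy 2.4.6.

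CpGs were named by position when in a dense cluster or a tested window, or among the 3 smallest p of a gene; others named were chosen after their values were seen. The members, the lists and the tests were chosen with earlier results of these data known. Promoter placement by CpG spacing (at least 8 listed CpGs, next best full match at most 0.7 of it) and the segments between starts were added after the data were seen. With it, the list of methylation genes, planned for an mm39 annotation, was described by reads only, beside all 31396 autosomal promoter windows placed by the same rule, of which 8360 were placed.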

Additional observations from a re-analysis of the deposited data

How the results depend on the processing

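Of the level differences and call counts compared between settings, 97 values stayed the same, 7 turned sign, 2 passed the threshold, 6 lost it and 4 moved. Level differences counted as the same when they kept their direction and side of the threshold, and call counts when they stayed at 0. With so few samples no exact p of a genotype level difference can fall below 0.05. Those values were thus bound to keep their side, and the 97 is no measure of robustness. The Dnmt1 cluster difference of −0.592 points was 0.389 points with CpGs weighted by reads, 0.898 points without replicate 3 of both genotypes, and −1.13 to 0.469 points when 1 sample was left out, turning without WT replicate 3. The Dnmt1 difference outside clusters of −1.58 points was 3.86 points with CpGs weighted by reads. The Dnmt3a level minus the autosomal level was −9.25 points with all members and 8.41 points with clusters defined at 21 listed CpGs, both with exact sign-flip p of 0.03125. The Dnmt1 level minus the autosomal level was −3.54 points at 20 reads and 3.37 to 4.53 points with 1 sample left out, where 5 samples allow no exact p below 0.0625. The Dnmt3a level minus the Dnmt1 level was 4.48 points at 20 reads and −16.8 points with all members. The cause of these shifts was not tested. Over pooled reads, Fisher's exact test, which takes reads as replicates, called 13 Dnmt3a and 12 Dnmt1 CpGs and 1 and 2 windows, with 24.8% of all CpGs and 33.5% of all windows. edgeR called 0 member CpGs and windows in all other settings run. The cluster level of Dnmt3a has no value at 20 reads, since no cluster CpG reached that depth in all 6 samples.

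The deviations of samples with the same replicate number had correlations of 0.00456, 0.000833 and 0.00233, all near 0. Those of samples with different numbers were −0.00662 to 0.00421, so the numbers were not taken as pairs. This leaves aside the higher chromosome X share of replicate 3 in both genotypes, given above. With the replicate block edgeR called 0 CpGs and 0 windows. The Dnmt3a cluster difference of 1.16 points then had an exact p of 0.5, and 3 pairs allow no p below 0.25.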
